A study of Homo sapiens with 10 samples.

Results

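The p53 target genes followed here were 10 genes listed by name, CDKN1A, MDM2, GDF15, BBC3, BAX, FAS, TP53INP1, SESN1, ZMAT3 and RRM2B, each matched by its symbol in the count tables. All 10 were found among the 28265 gene symbols of the tables, and all 10 passed the low-count filter that left 21014 genes for testing. RNA was taken from NKX2-1 GFP+ cells sorted from thyroid organoids grown from human embryonic stem cells, with 2 libraries on each of days 16, 23, 31, 38 and 45. The labels name cAMP for the libraries of days 16, 23 and 31, TSH and dexamethasone for day 38, and TSH and SB, the TGFβ receptor inhibitor SB431542, for day 45. In the study's methods the day 16 cells had not yet received 8-br-cAMP, and dexamethasone was kept in the medium given with SB431542. Every library came from 1 gene-edited line, ESIBIe003-A-6, in which GFP sits at 1 allele of NKX2-1 and transgenes for NKX2-1 and PAX8 answer to doxycycline, and all cells had passed through the same early induction with doxycycline. Wells were pooled into each library. By the labels the medium was the same on days 23 and 31, although in the schedule of the study's methods TSH had replaced cAMP shortly before day 31, and which of these applied to the day 31 cells is not settled by the sources used here. Cells kept in cAMP alone on days 38 and 45 were not analysed here, so time and medium cannot be told apart in the other comparisons.

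The protein p53 is a transcription factor that is made all the time and destroyed all the time, mainly because MDM2, the product of one of its own targets, marks it for the proteasome. When DNA damage or another stress stops that destruction, p53 builds up as a tetramer on response elements made of a pair of decamers, and the genes nearby are transcribed. Some of these genes halt the cell cycle, some restrain p53 itself, some promote apoptosis, and others protect against oxidative stress or supply nucleotides for repair. Several of them also answer to signals other than p53. The libraries measured RNA, so the amount and activity of the p53 protein were not observed.

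Sequences matching the p53 consensus were read from GRCh38 because they are the feature by which such genes are known. The search covered 2500 bases on each side of every gene start in GENCODE 44. A match was 2 decamers of 10 bases with no spacer, with the C and G of both 4-base cores in place and at most 2 of the other 16 positions off. The consensus reads the same on both strands, so both were covered. Distances below are from a start to the 5′ end of the match. Of the 10 genes, 6 held at least 1 match, while 740 of the 19321 windows of tested genes (3.83%) did. The match of CDKN1A lay at chr6:36676449-36676468 on the plus strand, straddling the gene start, with its 5′ end 11 bases before it and 2265 before the start of the canonical transcript, and is the textbook distal response element of this gene. That of MDM2, chr12:68808923-68808942 on the plus strand, lay 746 bases after the start in an intron and is likewise a textbook element. The GDF15 match, chr19:18373947-18373966 on the plus strand, was 784 bases before the gene start and 12211 before the canonical start. The BAX match was at chr19:48955213-48955232 on the plus strand, 398 bases after the gene start, in an intron of the canonical transcript and an exon of another. The ZMAT3 match, chr3:179070188-179070207 on the minus strand, was 2008 bases after the gene start in an intron and had 0 positions off. The sites are written on the strand of their gene, and the capitals mark the core of each decamer:
CDKN1A: gaaCATGtcccaaCATGttg
MDM2: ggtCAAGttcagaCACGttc
GDF15: agaCCTGcccggaCATGtcc
BAX: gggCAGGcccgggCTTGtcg
ZMAT3: aaaCAAGtccagaCATGcct
RRM2B was the remaining gene with a match, and its sequence is not shown. The windows of BBC3, FAS, TP53INP1 and SESN1 held no run of bases within these limits, which says only that such letters were not in those windows. For FAS the window lay around the outermost gene start, chr10:88953813, and did not reach the canonical start at 88990798. The bases around that canonical start were therefore not searched. A match is a description of the sequence and not evidence of binding in these cells.

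The libraries held 7247268 to 10333933 counts each, and 3 counts, the upper limit that a count of 0 allows, came to 0.307 to 0.435 CPM depending on the library. CPM are counts per 1000000 counts of the library, after scaling of library totals by TMM factors, and the limit covers counting error only. Differences between days are log2 fold changes with their standard error (SE) from edgeR's quasi-likelihood test, fitted over all 10 libraries with 5 residual degrees of freedom. A gene was called when its Benjamini-Hochberg adjusted p over the 21014 genes was under 0.05. No label says that the 2 libraries of a day came from separate differentiations, although the study's methods call them biological replicates. The p-values therefore measure the spread between these libraries, which may in part be technical. In this test the spread of each gene is estimated partly from that of all genes. A p-value thus does not rest on the libraries' spread in that gene alone. In bulk RNA, fewer cells of a type and less RNA per cell cannot be told apart.

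The 10 genes did not move as a block. CDKN1A rose at 3 of the 4 steps between neighbouring days and ended 16.6-fold above day 16, GDF15 rose from almost nothing between days 16 and 23, and TP53INP1 fell over the course, while MDM2, BBC3, BAX, FAS and SESN1 were called in no comparison. Tested over any day, 5 of the 10 genes were called, beside 36.3% of all genes tested. Between days 16 and 45, 3 were called, beside 24.6% of all genes. CDKN1A and GDF15 were the 2 called higher, beside 12.9% of all genes, and TP53INP1 was the 1 called lower, beside 11.7%. The median log2 fold change of the 10 genes over the whole course was -0.08, and that of all genes tested was 0.00.

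By step, 3 of the 10 genes were called on day 23 against day 16, beside 10.9% of all genes (5.60% higher and 5.33% lower), and these 3, CDKN1A, GDF15 and ZMAT3, were all higher. On day 31 against day 23 edgeR called 0 of the 10, beside 2.25% of all genes (1.58% higher and 0.666% lower). At that step 1 of the 10 was higher and 1 lower at an unadjusted p under 0.05, and DESeq2 also called 0. On day 38 against day 31, 2 were called, beside 15.0% of all genes, with CDKN1A higher (8.80% of all genes were) and RRM2B lower (6.23%). On day 45 against day 38, 2 were called, beside 11.2% of all genes, with CDKN1A higher (4.85%) and TP53INP1 lower (6.35%). The medians of the 10 genes at the 4 steps were 0.17, 0.13, -0.45 and 0.08 in order of time, against -0.02, 0.00, 0.00 and -0.02 for all genes. No test over the list as a whole was made.

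**Figure D1:**
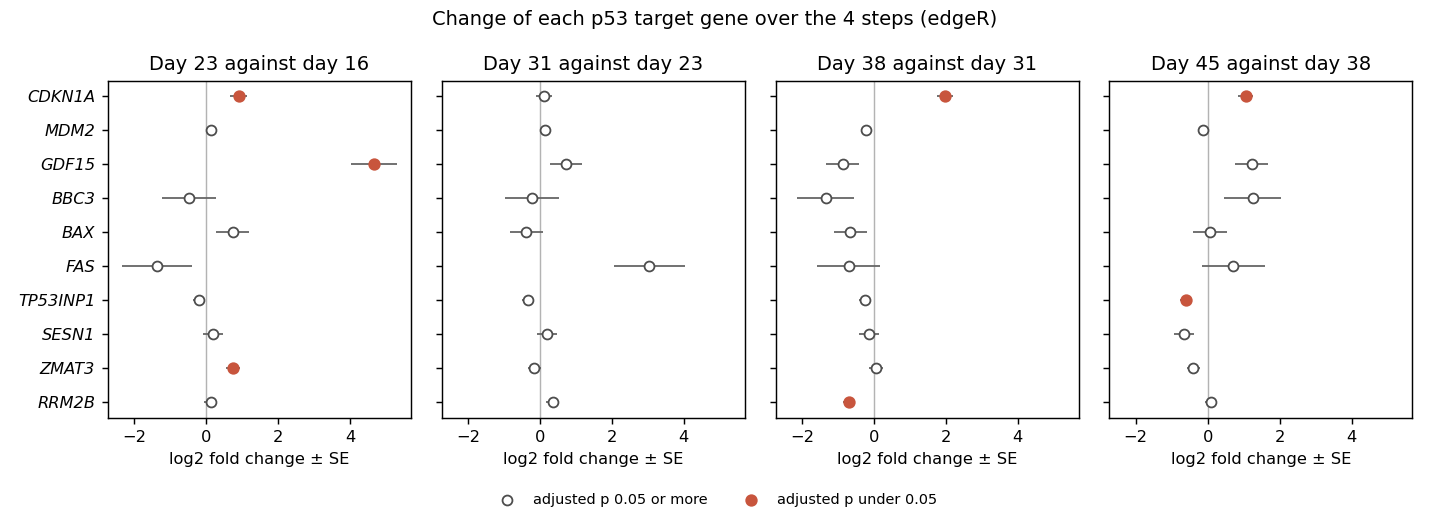
Log2 fold change of each of the 10 genes with its SE at the 4 steps between neighbouring days, from edgeR's quasi-likelihood fit, with filled points for an adjusted p under 0.05. CDKN1A is the only gene with filled points to the right of 0 on days 38 and 45, at 1.98 and 1.06, and the widest bars belong to FAS and BBC3, the genes with few counts.

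CDKN1A encodes p21, the inhibitor of cyclin-dependent kinases through which p53 halts the cell cycle. The gene lies at chr6:36676460-36687337. It measured 12.0 and 10.6 CPM on day 16, 26.7 and 15.5 CPM on day 23, 21.5 and 24.4 CPM on day 31, 103 and 78.2 CPM on day 38, and 214 and 162 CPM on day 45. Both day 38 libraries were above all 6 earlier ones, and both day 45 libraries were above both of day 38. Day means were 11.3 ± 1.03, 21.1 ± 7.89, 22.96 ± 2.08, 90.4 ± 17.2 and 188 ± 37.3 CPM (SD, n = 2 each). From day 31 to 38 the log2 fold change was 1.98 (SE 0.22), with an edgeR adjusted p of 1.8e-08. From day 38 to 45 it was 1.06 (SE 0.21, edgeR adjusted p = 0.00041). Over the whole course it was 4.05 (SE 0.24, edgeR adjusted p = 2.2e-15). The earliest step was small and rested on single libraries. Its log2 fold change of 0.90 (SE 0.24, edgeR adjusted p = 0.0102) came to 0.46 with an adjusted p of 0.375 without the first day 23 library and to 0.81 with 0.0757 without the second of day 16, and the adjusted p was 0.152 in an edgeR fit of only the 4 libraries compared. Days 23 and 31 differed by 0.12 (SE 0.23, edgeR adjusted p = 0.928), and their libraries overlapped. DINOL, an antisense transcript that shares 951 bases with CDKN1A, had 0 to 2 counts in every library.

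MDM2, the ubiquitin ligase that holds p53 down, was abundant and nearly level. Its counts were 1579 and 1868 on day 16, 2013 and 2204 on day 23, 2386 and 2392 on day 31, 2143 and 1908 on day 38, and 1403 and 1949 on day 45. Scaled to CPM, the day means were 215 ± 21.1, 237 ± 20.4, 261 ± 24.1, 227 ± 6.57 and 208 ± 6.49 (SD, n = 2 each), and the highest day stood 1.25-fold above the lowest. The libraries of day 45, at 204 and 213 CPM, fell within the range of the day 16 pair, at 200.2 and 230.0 CPM. Against day 16 the log2 fold change on day 45 was -0.05 (SE 0.13, edgeR adjusted p = 0.859), in the same libraries in which CDKN1A was 4.05 higher. The adjusted p over any day was 0.237 in edgeR. Without TMM factors it was 0.0119, and MDM2 was then also called lower on day 38 against day 31 (-0.42, edgeR adjusted p = 0.0211, against -0.20 and 0.353 with them), but leaving out those factors moved the median of all genes at that step by -0.20. MDM2 (chr12:68808177-68845544) shares 3348 bases with the gene of carboxypeptidase M, whose symbol is also CPM, on the opposite strand. That gene fell by 1.68 at that step (log2, edgeR adjusted p = 4.3e-10). The strand setting of the counting is not given in the sources used here, so reads in the shared bases cannot be assigned to either gene. Bases shared with another gene are given throughout for whole gene spans, introns included, and the part within exons was not examined.

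GDF15 encodes a secreted cytokine of the TGFβ superfamily that is released by stressed cells and is induced both by p53 and by the integrated stress response. The gene lies at chr19:18374731-18389176 and had 5 and 1 counts on day 16, or 0.634 and 0.123 CPM. At later days it measured 5.43 and 14.3 CPM (day 23), 17.8 and 14.8 CPM (day 31), 10.2 and 7.68 CPM (day 38), and 19.3 and 22.4 CPM (day 45). Every later library was thus above both of day 16, and both day 45 libraries were above the 6 of days 23 to 38. From 6 counts on day 16 to 174 on day 23 the ratio per counted total was 26.1 (95% exact counting interval 11.8 to 72.2), and to the 338 counts of day 45 it was 56.2 (25.6 to 154). The log2 fold change on day 23 was 4.66 (SE 0.65, edgeR adjusted p = 2.6e-06). Its size, though not its call, rested on single libraries, since it was 6.18 without the first day 16 library, 3.93 without the second, and 3.80 without the second day 23 library. Likewise the change to day 45, 5.74 with all libraries, was 7.23 without the first day 16 library and 5.01 without the second. The lower level on day 38 than on day 31 did not pass the test (-0.87, SE 0.45, edgeR adjusted p = 0.230). The step to day 45 was outside the threshold, at 1.22 (SE 0.46, edgeR adjusted p = 0.0815). This step passed in the edgeR fit of only the 4 libraries compared (adjusted p = 0.0121) and with a replicate block (0.0471). It was not called by DESeq2, nor under the other scalings and filters. Without the first or the second day 16 library the change stayed at 1.22.

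BBC3, BAX and FAS, 3 genes of the list that promote apoptosis, had few counts or widely spread pairs, and edgeR called none of these 3 with all libraries. BBC3 encodes PUMA, a BH3-only protein, and had 71, 35, 36, 49, 47, 29, 16, 13, 46 and 11 counts from the first day 16 library to the second of day 45. Its day 45 pair, at 6.68 and 1.20 CPM, spanned all the other libraries but that of day 16 with the highest value, so no direction could be read beyond the spread between libraries. BAX, which forms pores in the mitochondrial outer membrane, measured 14.7 and 4.80 CPM on day 16, 14.0 and 18.5 CPM on day 23, and 8.71 and 7.97 CPM on day 45. The pair on day 16 enclosed both day 45 libraries. The step to day 23 was 0.74 (SE 0.46, edgeR adjusted p = 0.354), and without the first day 16 library it was 1.77 and passed (edgeR adjusted p = 0.0408). Over any day the adjusted p was 0.259 for BAX and 0.299 for BBC3 in edgeR, and without that same library it was 0.0412 for BAX.

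FAS, the death receptor of the TNF receptor family, had 3 and 23 counts on day 16, 7 and 4 on day 23, 66 and 31 on day 31, 31 and 26 on day 38, and 28 and 58 on day 45. All 6 libraries from day 31 on were above the 4 earlier ones in CPM. From 11 counts on day 23 to 97 on day 31 the ratio per counted total was 8.53 (95% exact counting interval 4.56 to 17.7). With the spread between libraries included, the log2 fold change of 3.04 (SE 0.98) did not pass (edgeR adjusted p = 0.116), nor did the test over any day (edgeR adjusted p = 0.0588). The latter passed with DESeq2 (0.0332) and in edgeR with no low-count filter (0.0386), and edgeR gave 0.0137 without the second day 16 library. Without that library FAS also passed on day 45 against day 16, at 3.73 (edgeR adjusted p = 0.0400), where it had been 1.69 (SE 0.91) with 0.192. FAS overlaps ACTA2, a smooth muscle actin gene on the opposite strand, over 37527 bases, and STAMBPL1 on its own strand. ACTA2 itself rose by a log2 fold change of 3.84 on day 38 against day 31 (edgeR adjusted p = 1.7e-05), a step at which FAS was at -0.70 (SE 0.87). The counts of FAS are therefore uncertain.

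TP53INP1 is a stress-induced nuclear protein that takes part in p53-dependent arrest, apoptosis and autophagy, and it moved against CDKN1A. It measured 133 and 177 CPM on day 16, 126 and 143 CPM on day 23, 109 and 105 CPM on day 31, 87.6 and 93.0 CPM on day 38, and 64.3 and 53.9 CPM on day 45. From day 31 on, each day's pair was wholly below that of the day before, and days 16 and 23 overlapped. The day means fell from 155 ± 31.4 to 59.1 ± 7.32 CPM (SD, n = 2 each). The whole course amounted to -1.39 (log2, SE 0.16, edgeR adjusted p = 2.7e-08). Of the single steps, the one from day 38 to 45 was called, at -0.61 (SE 0.16, edgeR adjusted p = 0.0103), and was no longer called without the second day 38 library (-0.57, 0.110) or the second day 45 library (-0.49, 0.154). The step from day 31 to 38 was -0.25 (SE 0.16, edgeR adjusted p = 0.361) and passed without TMM factors (-0.46, 0.0411), where all genes shifted by -0.20. All 23407 bases of TP53INP1, introns included, lie within the span of NDUFAF6 on the opposite strand, so its counts are uncertain in the same way. How far the exons of these 2 genes overlap was not examined. The log2 fold change of NDUFAF6 from day 16 to 45 was -0.12 (SE 0.27, edgeR adjusted p = 0.819).

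Of SESN1, ZMAT3 and RRM2B, which serve protection and repair, ZMAT3 was called on day 23, RRM2B on day 38 and SESN1 in no comparison. SESN1 encodes sestrin 1, which lowers oxidative stress and mTORC1 activity. It measured 19.0 and 41.2 CPM on day 16, a wider gap than at any later day, and its later day means ran from 39.7 ± 6.18 CPM on day 31 to 23.1 ± 4.37 CPM on day 45 (SD, n = 2 each). No step was called, and the 2 day 16 libraries pulled the whole course in opposite directions. It was -0.38 (SE 0.28, edgeR adjusted p = 0.371) with both, -0.84 (0.0278) without the first and 0.29 (0.571) without the second. Over any day the edgeR adjusted p of SESN1 was 0.174, and it was 0.0457 without the first and 0.0104 without the second.

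ZMAT3, a zinc finger protein that binds RNA and regulates splicing, measured 45.6 and 59.1 CPM on day 16 and 77.9 and 99.3 CPM on day 23, without overlap. The step was 0.76 (log2, SE 0.19, edgeR adjusted p = 0.00675). It was not called without the first day 16 library (0.60, 0.0764) or the second day 23 library (0.57, 0.166). On day 45 ZMAT3 was back at 67.0 and 59.2 CPM, and the whole course was 0.27 (SE 0.19, edgeR adjusted p = 0.349). RRM2B, the p53-inducible small subunit of ribonucleotide reductase, which makes deoxynucleotides outside S phase, was highest on day 31, at 102 CPM in each library. It measured 58.6 and 68.1 CPM on day 38 and 71.4 and 64.0 CPM on day 45. The fall from day 31 to 38 was -0.69 (log2, SE 0.18, edgeR adjusted p = 0.00561), and without the first day 38 library it was -0.58 with 0.131. The edgeR test over any day gave RRM2B an adjusted p of 0.0134, which became 0.0969 without the first day 31 library, 0.0824 without the second and 0.0595 without the first of day 38.

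Levels can be set beside each other once each gene is divided by the length of its canonical transcript. On this scale, CPM per kb, MDM2 at 28.7 and TP53INP1 at 27.7 led the list on day 16, followed by RRM2B at 15.4 and BAX at 12.3, and CDKN1A stood at 5.34. On day 45 CDKN1A led with 88.9 CPM per kb, followed by MDM2 at 27.8, GDF15 at 17.4, RRM2B at 14.2, and then TP53INP1 and BAX at 10.5 each. FAS was lowest on day 45, at 1.41 CPM per kb, below BBC3 at 2.13. The order thus changed at its head between days 16 and 45, while MDM2 kept to 27.8 to 34.9 CPM per kb at all 5 days. The limits given above on reads shared with overlapping genes hold for MDM2, TP53INP1 and FAS on this scale too, and so for their ranks.

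Across the 10 libraries, which share the course of time and the scaling, the log2 CPM of CDKN1A and TP53INP1 had a Pearson r of -0.93. MDM2 went most closely with RRM2B (0.74) and SESN1 (0.70), and r between CDKN1A and MDM2 was -0.37. These are descriptions over 5 days of 2 libraries. Among 13115 genes with a mean of at least 5 CPM, the patterns most like that of CDKN1A were those of DNAJC3, a chaperone of the endoplasmic reticulum, RCOR1, a corepressor, and AGPAT3, a phospholipid acyltransferase, each with r of 0.99. The patterns most like that of TP53INP1 were those of POU2F1, a transcription factor, TUSC3, an oligosaccharyltransferase subunit, and ALCAM, an adhesion molecule, each with r of 0.98.

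The 3 genes of the CIP/KIP family, to which p21 belongs, took different courses. CDKN1C, which encodes p57, measured 21.4 and 27.8 CPM on day 16, 51.5 and 54.6 CPM on day 31, 289 and 249 CPM on day 38, and 233 and 215 CPM on day 45. It rose on day 38 by 2.34 (log2, SE 0.16, edgeR adjusted p = 1.4e-13), beside 1.98 for CDKN1A, and the day 45 pair lay below that of day 38 where CDKN1A rose again (1.06). CDKN1B, which encodes p27, fell from 60.6 ± 4.34 CPM on day 16 to 25.6 ± 10.7 CPM on day 45 (SD, n = 2 each; log2 fold change -1.25, SE 0.24, edgeR adjusted p = 0.0001). Its last step, from day 38 to 45, was called at -0.74 (edgeR adjusted p = 0.0367), a call that held in 9 of 17 alternatives and not in DESeq2 (-0.70, 0.0674). Among the other relatives of the list, SESN3 fell over the course by 1.48 (log2, SE 0.12, edgeR adjusted p = 4.6e-12), whereas SESN2 was called in no comparison. TP53INP2, a relative of TP53INP1, was higher on day 38 (log2 0.82, edgeR adjusted p = 0.0172) and over the course (0.85, edgeR adjusted p = 0.00794). These calls held in 14 and 15 of 17 alternatives. Of the 9 relatives, including CDKN1B and CDKN1C, 5 were called over the course (2 higher, 3 lower), beside 24.6% of all genes. The steps had 2, 1, 2 and 2 calls, beside 10.9%, 2.25%, 15.0% and 11.2%. RRM2, the S-phase counterpart of RRM2B, fell on day 23 by 1.65 (log2, SE 0.39, edgeR adjusted p = 0.00348), a call lost without the second day 23 library (-1.36, 0.0825). RRM2 then rose on day 31 by 1.40 (SE 0.39, edgeR adjusted p = 0.0444), from 8.64 and 5.49 CPM to 18.4 and 18.8 CPM, and this call held in 10 of 17 alternatives. RRM1, the large subunit, was called in no comparison. MDM4, the partner of MDM2, had a log2 fold change of -0.36 on day 45 against day 16 (edgeR adjusted p = 0.0411). This call held in 9 of 17 alternatives. Without the second day 16 library the change was -0.24, and without the first day 45 library -0.26.

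**Figure D2:**
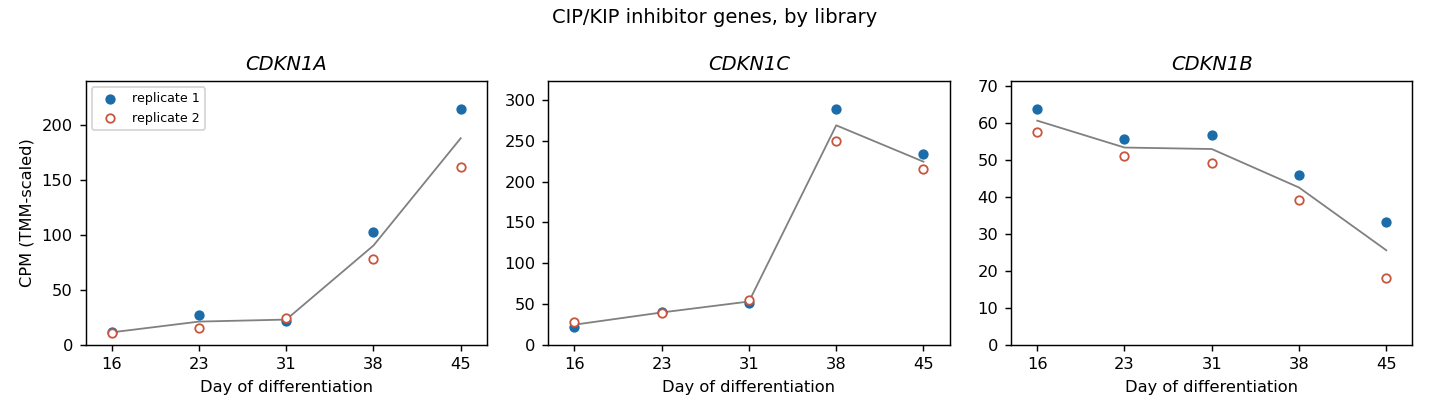
TMM-scaled CPM of CDKN1A, CDKN1C and CDKN1B against day of differentiation, 1 point per library and a line through the day means, each axis starting at 0. CDKN1C steps up on day 38 and does not rise again, CDKN1A rises at both days 38 and 45, and CDKN1B declines to 25.6 CPM.

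Of 12 genes whose products act on p53, 3 were called on day 23 (1 higher, 2 lower), beside 10.9% of all genes, and 4 on day 38 (1 higher, 3 lower), beside 15.0%. On day 45 against day 38, 4 were called (1 higher, 3 lower), beside 11.2%, and on day 45 against day 16, 5 were called (1 higher, 4 lower), beside 24.6%. On day 31 edgeR called 0, beside 2.25%, with 1 at an unadjusted p under 0.05 and 1 called by DESeq2. The medians were 0.08, -0.02, -0.01 and -0.14 at the 4 steps and -0.33 over the course. Leaving out 1 library gave 2 to 3 calls on day 23, 0 to 1 on day 31, 2 to 5 on day 38, 1 to 5 on day 45 against day 38 and 3 to 5 over the course, and the 1 call of day 45 against day 38 came without the second day 38 or the second day 45 library. HIPK2, EP300 and ATR were the calls lost in both cases. CREBBP, a coactivator that acetylates p53, was 0.99 higher on day 23 and -0.81 on day 38 (log2). HIPK2, a kinase that phosphorylates p53, fell by 0.88 over the course (edgeR adjusted p = 1.1e-06), and USP7, a deubiquitinase of MDM2 and p53, was 0.64 higher (edgeR adjusted p = 0.00038).

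A further list of 32 known p53 targets was tested in full. Here 5 were called on day 23 (4 higher, 1 lower), beside 10.9% of all genes, 3 on day 31 (2 and 1), beside 2.25%, and 3 on day 38 (2 and 1), beside 15.0%. On day 45 against day 38, 7 were called (6 and 1), beside 11.2%, and on day 45 against day 16, 12 were called (10 and 2), beside 24.6%. The medians were 0.01, 0.25, -0.26, 0.12 and 0.57 in the same order. Leaving out 1 library gave 3 to 5, 0 to 4, 1 to 4, 3 to 8 and 9 to 13. The calls of day 31 were all lost without either day 23 library, and the lowest count of day 45 against day 38 came without the second day 38 library. Over any day 17 of the 32 were called, beside 36.3% of all genes. On day 45 against day 38, the step at which CDKN1A rose by 1.06, GADD45A, a stress sensor that halts growth, rose from 22.6 and 22.8 CPM to 73.7 and 97.4 CPM (log2 fold change 1.92, SE 0.22, edgeR adjusted p = 7.9e-08). GADD45A had been at 58.3 and 60.2 CPM on day 16 and 47.8 and 48.5 CPM on day 23, and it fell on day 31 by 0.96 (log2, SE 0.22, edgeR adjusted p = 0.00877), a call lost without either day 23 library or the first of day 31 (adjusted p = 0.0642, 0.0765 and 0.246). PPM1D, the phosphatase WIP1 that restrains p53 signalling, went from 28.0 and 26.1 CPM to 62.0 and 56.2 CPM (1.13, SE 0.24, edgeR adjusted p = 0.00103). In neither gene did the libraries of days 38 and 45 overlap. POLH, the translesion polymerase eta, was called at 1.00 (edgeR adjusted p = 0.00295) but not without the second day 38 library (0.95, 0.0574) or the first day 45 library (0.82, 0.0752). APAF1, the core of the apoptosome, was lower over the course, at -0.81 (SE 0.19, edgeR adjusted p = 0.00143), and XPC, which recognizes DNA lesions, fell by 1.00 on day 38 (log2, SE 0.18, edgeR adjusted p = 0.00013). XPC had first been called higher on day 23, at 0.61 (SE 0.18, edgeR adjusted p = 0.0238), which did not pass without the second day 16 library (0.47, 0.175) or either day 23 library (0.66, 0.0777 and 0.55, 0.172). DRAM1, a lysosomal protein of autophagy, had 6 counts on day 16 and 326 on day 45, a ratio of 54.2 (95% exact counting interval 24.6 to 149). Its log2 fold change of 5.79 was 7.24 without the second day 16 library, 5.08 without the first, and 5.10 without the first day 45 library, and was called each time.

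Of 27 cell cycle genes, 14 were called on day 45 against day 16, all lower, beside 11.7% of all genes called lower. The median of the 27 was -1.08 against 0.00 for all genes. Without the second day 16 library 9 were called over the course, the lowest of 9 to 16 with 1 library left out. By step, 5 were called on day 23 (all lower), beside 10.9% of all genes, 1 on day 31 (higher), beside 2.25%, 8 on day 38 (1 higher and 7 lower), beside 15.0%, and 3 on day 45 against day 38 (all lower), beside 11.2%. With 1 library left out these were 2 to 5, 0 to 1, 6 to 9 and 1 to 4, and the count of day 23 came to 2 without the second day 16 library or either of day 23, that of day 45 to 1 without the first day 45 library. The 1 called higher on day 38 was TOP2A, the topoisomerase of dividing cells, which went from 153 and 140 CPM to 226 and 226 CPM (0.62, SE 0.16, edgeR adjusted p = 0.00652), a call lost without the second day 31 library (0.55, 0.113) and without TMM factors (0.41, 0.0820). On day 45 it was lower again, at -0.66 (SE 0.16, edgeR adjusted p = 0.00555), which did not pass without the first day 45 library (-0.44, 0.194). MCM2, a subunit of the replicative helicase, measured 52.1 and 53.2 CPM on day 31, 18.0 and 13.4 CPM on day 38, and 12.9 and 8.41 CPM on day 45 (log2 fold change of the day 38 step -1.74, SE 0.26, edgeR adjusted p = 5.1e-06). BUB1, a kinase of the spindle checkpoint, fell from 33.0 and 27.4 CPM on day 38 to 8.27 and 9.72 CPM on day 45 (-1.74, SE 0.31, edgeR adjusted p = 0.00011). The relation of these genes to CDKN1A was not tested. Of 6 inhibitors of cyclin-dependent kinases other than CDKN1A, 2 were called on day 23 (both higher), beside 10.9% of all genes, 2 on day 38 (both higher), beside 15.0%, 1 on day 45 against day 38 (CDKN1B, lower, with the limits given above), beside 11.2%, and 3 over the course (2 higher, 1 lower), beside 24.6%. Both day 23 calls were lost without the first day 16 library, 1 of the day 38 calls without the second day 31 library or either of day 38, and none of the 3 over the course without any 1 library. On day 31 edgeR and DESeq2 called 0 of these, beside 2.25%, and 1 was higher at an unadjusted p under 0.05. CDKN2A, the gene of p16, had 0 counts in all 6 libraries up to day 31 and 2 to 17 in the 4 later ones.

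Markers of thyroid and other cell types changed in level over the same days. Of 8 thyroid genes all 8 were called on day 45 against day 16, with 5 higher and 3 lower, beside 24.6% of all genes, and 5 without the first day 16 or the second day 45 library. Their summed level was 1853 and 1457 CPM on day 16, 1630 and 1594 on day 23, 1612 and 1559 on day 31, 7351 and 6592 on day 38, and 9307 and 8824 on day 45, and TG, the gene of thyroglobulin, made up most of the last 4. NKX2-1, the gene of the sort, was at 86.9 ± 4.36 CPM on day 16, 154 ± 3.69 on day 31 and 62.4 ± 6.12 on day 45 (SD, n = 2 each). At each step at which CDKN1A was called higher, some mesenchymal, some thyroid and some airway markers were too. Of 8 mesenchymal markers, 7 were called higher over the course, beside 12.9% of all genes. By step 3 were called higher on day 23 (and 1 lower), 4 on day 38 (and 1 lower) and 3 on day 45 against day 38 (0 lower), beside 5.60%, 8.80% and 4.85% of all genes called higher. On day 23, where CDKN1A, GDF15 and ZMAT3 were called higher, the 3 were DCN (2.41), LUM (1.69) and COL3A1 (1.22), with edgeR adjusted p of 8.8e-07, 1.1e-08 and 2.3e-07, each called in all 17 alternatives. The value of DCN was 3.78 without the second day 16 library and 1.74 without the first. Their sum went from 913 and 1123 CPM on day 16 through 1689 and 1683 on day 23 and 1509 and 1772 on day 31 to 4277 and 4508 on day 38 and 4513 and 3616 on day 45. COL3A1 was the most abundant at each day, and TWIST1 had 0 to 27 counts. From day 38 to 45, where CDKN1A rose by 1.06, the sums of the 2 days overlapped, while the median of the 8 markers was 0.53 against -0.02 for all genes. The 3 called at that step were PDGFRA (1.25), DCN (1.36) and LUM (0.94), with edgeR adjusted p of 0.00636, 0.00041 and 0.00028, and COL1A1, COL1A2 and COL3A1, the most abundant, were at -0.34, -0.25 and -0.05 and were not called. PDGFRA did not pass without either day 38 library (adjusted p = 0.0965 and 0.0578), nor DCN in DESeq2 (0.0741). Of 4 endothelial markers 1 was called over the course, higher, with sums of 16.5 to 53.9 CPM, KDR or TEK as the most abundant, and PECAM1 at 0 in the 6 libraries up to day 31. The endothelial count over the course was higher without the first day 45 library. Of 7 airway markers 5 were called over the course (4 higher, 1 lower; 3 in all without the second day 45 library), and their sum ran from 36.1 and 26.5 CPM on day 16 to 532 and 553 on day 31, with SFTPB the most abundant there, and 129 and 107 on day 45, with SCGB1A1 at 0 to 12 counts. Of 5 neural markers 3 were called over the course (2 higher, 1 lower), with sums of 14.2 to 53.1 CPM, TUBB3 the most abundant on day 45, and PAX6 at 0 to 38 counts. By step 7 thyroid genes were called on day 23 (4 higher, 3 lower), and on day 31 edgeR and DESeq2 called 0. On day 38 4 were called (all higher) and on day 45 against day 38 4 (1 higher). Airway markers called were 3 on day 23 (2 higher), 2 on day 31 (both higher) and 3 on day 38 (1 higher). On day 45 against day 38 they were 4 (3 higher). All genes called were 10.9%, 2.25%, 15.0% and 11.2% at the 4 steps. Some of these counts changed with the library left out. The part of these cells and states in the changes of CDKN1A, GDF15 and TP53INP1 was not tested.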

How the data were processed

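Reads of low-input libraries from sorted NKX2-1 GFP+ cells were trimmed with Trimmomatic, aligned to GRCh38 with HISAT2 and counted per gene of the Ensembl GRCh38.p13 annotation with HTSeq on the Galaxy platform by the authors, who deposited raw counts. Versions of these 3 tools and the strand setting are not given in the sources used here. All other steps were computed from these counts. Each table also held 28265 empty rows, which were dropped. The 21014 of 28265 genes that reached 5 counts in 2 or more libraries were fitted with 1 mean per day in edgeR 4.0.16 (glmQLFit and glmQLFTest, TMM factors, limma 3.58.1, R 4.3.3), with Benjamini-Hochberg adjustment over all genes tested and a threshold of 0.05. Approximate SEs came from the size of the log2 fold change over the root of its F statistic. Correlations were taken on log2 CPM (prior count 2). The edgeR fit was tested on simulated data, where the smaller changes were recovered less often and the share of false calls was above the nominal threshold, so calls close to it are the least certain. Counts of the paired libraries of a day differed by more than sampling noise (chi-square per degree of freedom 7.34 to 12.3), with Pearson r of 0.940 to 0.970 between their log2 CPM, so no pair was treated as the same library. This does not tell technical from biological repeats. PCR copies were not separated, so intervals and limits cover counting error only.

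The 10 genes and the lists beside them (further p53 targets, p53 regulators, relatives of the 10, inhibitors of cyclin-dependent kinases, BCL2 family, cell cycle, ATF4 response, immediate early genes, and thyroid, mesenchymal, endothelial, airway and neural markers) were chosen with earlier results of these data known. One gene of these lists is not reported here. From each list, genes were named when called with one of the 3 largest changes in a direction and a mean of 5 CPM or more in the libraries of that comparison, together with MDM4, RRM1, RRM2, SESN2, SESN3, CDKN1B and CDKN1C. Of such genes, those whose call held without any one library were preferred, and CDKN2A and the single marker genes were named after their values were seen. Genes that overlap the 10, and the 3 with the pattern most like CDKN1A or TP53INP1, were named as such. Positions and canonical transcripts came from GENCODE 44, in which 25474 of the 28265 symbols (90.1%) matched 1 gene. Alternatives were a fit in DESeq2 1.42.0, scaling by library size alone or by upper quartiles, filterByExpr or no filter, a fit restricted to the 4 libraries of a comparison, a replicate block, and leaving out each library.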

Additional observations from a re-analysis of the deposited data

How the results depend on the processing

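With 2 libraries per day, leaving out 1 left a day with a single library whose spread was assumed to equal that of the other days. The number of the 10 p53 target genes called then ran from 2 to 3 (day 23 against day 16, 3 with all libraries), 0 to 0 (day 31 against day 23), 1 to 2 (day 38 against day 31, 2 with all), 1 to 3 (day 45 against day 38, 2 with all), 3 to 4 (day 45 against day 16, 3 with all) and 4 to 7 (any day, 5 with all). In the same order, genes called among all tested ran from 1350 to 2383 (2296 with all libraries), 206 to 646 (473), 1764 to 3614 (3160), 1166 to 2816 (2353), 3969 to 5222 (5175) and 6331 to 7763 (7628). Without TMM factors 4 of the 10 were called on day 38 against day 31, the 2 more being MDM2 and TP53INP1, and ZMAT3 changed sign (-0.16). Directions that turned all belonged to values that passed no test with all libraries. Leaving out 1 library gave these log2 ranges. For day 23 against day 16 they were -0.91 to 0.17 for BBC3, -2.16 to 0.68 for FAS, -0.39 to 0.015 for TP53INP1, -0.24 to 0.86 for SESN1 and -0.065 to 0.36 for RRM2B. For day 31 against day 23 they were -0.22 to 0.56 for CDKN1A, -0.51 to 0.038 for BBC3 and -0.40 to 0.042 for ZMAT3. For day 38 against day 31 they were -0.28 to 0.047 for SESN1 and -0.15 to 0.31 for ZMAT3. For day 45 against day 38 they were -0.43 to 2.03 for BBC3, -0.22 to 0.43 for BAX and -0.010 to 0.21 for RRM2B. For day 45 against day 16 they were -0.15 to 0.057 for MDM2, -2.46 to 0.0063 for BBC3, -0.82 to 0.78 for BAX, -0.84 to 0.29 for SESN1 and -0.33 to 0.12 for RRM2B. The cause of these changes was not tested beyond the library left out.

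Libraries with the same replicate number shared no deviation over all genes, with correlations of -0.03 to 0.02 over 10 pairs of days. This cannot tell whether they came from the same differentiation, and no label says so. With the replicate block 2703, 678, 3472, 2691 and 5460 genes were called in the order above, and 8239 over any day. Of the 10 genes, GDF15 on day 45 against day 38 (1.21, edgeR adjusted p = 0.0471) and FAS over any day (0.0413) were then also called. At a depth of 7247268 to 10333933 counts, BBC3, FAS and the day 16 level of GDF15 rested on few counts.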

Other observations

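Shares of all genes called, for the counts of the 3 lists that follow, were 10.9% on day 23, 2.25% on day 31, 15.0% on day 38, 11.2% on day 45 against day 38 and 24.6% on day 45 against day 16. Of 12 genes of the ATF4 response, the transcriptional arm of the integrated stress response, 3 were called lower on day 23 (5.33% of all genes were), 1 higher on day 31 (1.58%), 4 higher on day 38 (8.80%), and on day 45 against day 38 6 were called, 4 of them higher. The counts of the single steps changed with the library left out. Over the course 5 were called, all higher (12.9%), with 5 to 6 when 1 library was left out, and the median was 0.93. TRIB3, a pseudokinase that feeds back on ATF4, had 33 and 9 counts on day 31 and 263 and 236 on day 38, a ratio of 12.2 (95% exact counting interval 8.91 to 17.2). Its log2 fold change of 3.63 was 4.72 without the first day 31 library and 3.04 without the second, and was called both times. DDIT4, an inhibitor of mTORC1, fell on day 23 by 2.19 (log2, edgeR adjusted p = 7.6e-06), rose on day 38 by 3.56 and fell on day 45 by 2.45 (log2, edgeR adjusted p = 1.7e-10 and 3.5e-07). PPP1R15A, the phosphatase subunit GADD34, was called lower on day 23 (-0.53, edgeR adjusted p = 0.0189), though not without the first day 16 library or either day 23 library (0.118, 0.0593 and 0.195), and rose on day 45 by 1.31 (edgeR adjusted p = 1.1e-07).

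Among 12 genes of the BCL2 family other than BAX and BBC3, 4 were called on day 23 (2 higher), 1 on day 31 (higher), 2 on day 38 (1 higher), 3 on day 45 against day 38 (1 higher) and 6 over the course (4 higher). With 1 library left out these were 1 to 5, 0 to 2, 0 to 2, 3 to 4 and 3 to 6, with the single call of day 23 without the second day 16 library, none on day 38 without the second day 38 library, and 3 over the course without the first day 45 library. BMF, which encodes a BH3-only protein, measured 152 and 137 CPM on day 38 and 25.7 and 27.9 CPM on day 45, with a log2 fold change of -2.42 (SE 0.16, edgeR adjusted p = 3.3e-13). BCL2, the founding survival gene of the family, fell from 301 ± 6.23 CPM on day 16 to 67.4 ± 8.29 CPM on day 45 (SD, n = 2 each; log2 fold change -2.16, edgeR adjusted p = 5.1e-14). MCL1, another survival gene, rose from 521 and 520.0 CPM on day 38 to 868 and 917 CPM on day 45 (0.78, edgeR adjusted p = 1.3e-05), after a fall on day 23 (-0.49, 0.00549) and a rise on day 31 (0.50, 0.0154). The fall was lost without the second day 16 or second day 23 library (0.120 and 0.116), and the rise without any 1 of the 4 libraries compared (adjusted p = 0.0854 to 0.277). Of 9 immediate early genes, markers of dissociation and handling as well as of signalling, 2 were called on day 23, 1 on day 31 and 6 on day 45 against day 38, 5 of them lower. On day 38 edgeR and DESeq2 called 0, with 2 at an unadjusted p under 0.05. With 1 library left out these were 1 to 2, 0 to 2, 4 to 6 and, on day 38, 0 to 1. Over the course 7 were called (5 to 7 with 1 library left out), 5 of them lower, and FOS went from 1615 CPM on day 16 to 359.8 CPM on day 45. Their part in the changes of the p53 target genes was not tested.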
